A study of Mus musculus with 6 samples.

Results

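The genes described here are 9 that belong to the late, myelin-forming stage of the oligodendrocyte lineage: Mbp, Cnp, Mag, Mog, Mobp, Ugt8a, Trf, Gpm6b and Cldn11. They were taken by symbol from the authors' comparison, in which 6 of the 9 have a row among 12316 gene rows. Mbp, Mag and Mog have no row of their own under these symbols, and 0 rows carry one of their other RefSeq names, so these 3 are not analysed here. The 82 rows that name several genes were not searched for them. The cells were neural stem cells of E14.5 embryos of CD-1 mice, bought from a commercial supplier, grown as a monolayer on poly-L-ornithine and laminin with EGF and bFGF, and expanded under 0.5 µg/mL puromycin after lentiviral transduction. The 6 libraries of poly(A) RNA fall into 3 groups of 2: a scrambled short hairpin RNA (shRNA), Sox4 shRNA 1 and Sox4 shRNA 2, each with libraries that the titles number 1 and 2. All 3 groups carried a hairpin and went through the same selection. The design text calls the duplicates biological, at different passages, and speaks of 1 hairpin against Sox4, whereas the labels list 2.

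The deposited comparison gives each gene a single level in a first condition and a single level in a second one, and names neither. It is therefore not known here which condition carried Sox4 shRNA, nor whether both hairpins were pooled. Every direction below is read as second over first, "rose" and "fell" are used of genes that the authors flagged as significant (called), and no level has a replicate spread. Sox4 itself is listed at 127 and then 83.9 (Cuffdiff q = 0.0543) per the authors' deposited table, so it missed the call. Recomputed over the rows given here, which are fewer than the authors' tests, its Benjamini-Hochberg value was 0.0472, and 0.0462 over rows with a level of at least 1. The header gives no unit for the levels. If they are the length-scaled values that Cuffdiff writes, they can be compared between genes as well as between conditions.

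Oligodendrocytes arise from neural precursors, pass through a dividing precursor stage and a newly formed, non-dividing stage, and then wrap axons in myelin. Myelin is a stack of lipid-rich membrane. Mbp holds its compact layers together, Cnp maintains its cytoplasmic channels, Mag and Mog lie at its inner and outer surfaces, Cldn11 forms the tight junctions between its turns, and Ugt8a makes its galactolipids. Several of the genes are not restricted to myelinating cells: Gpm6b is also expressed by radial glia and neurons, and Trf by choroid plexus and liver.

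Promoter windows show how differently the members are built at their start sites. RefSeq windows on GRCm38.p6 were used for 7 of the 9 genes, 5 of which have a row in the comparison. Trf and Mbp are the others: Trf had no window, and Mbp was left out of the search by choice. The 250 bases before the RefSeq start were searched in each window used. In the GENCODE annotation, Mobp and Cnp start 35 bases and Gpm6b 32 bases earlier, so their windows are printed only up to the GENCODE start: 215, 215 and 218 bases, and all 250 for Cldn11. These 4 are shown, 5′ to 3′ on the gene's strand, because they range from many copies of a Sox-type core to none. They lie at chr9:120149492-120149706 for Mobp, chr11:100574689-100574903 for Cnp, chrX:166238693-166238910 for Gpm6b and chr3:31149670-31149919 for Cldn11, all on the plus strand. Capitals mark ACAAAG on either strand, a core that Sox factors and Tcf factors can bind. A second Sox-type core, ACAAT, was searched on both strands too, and neighbouring copies of the cores may share letters.
Mobp: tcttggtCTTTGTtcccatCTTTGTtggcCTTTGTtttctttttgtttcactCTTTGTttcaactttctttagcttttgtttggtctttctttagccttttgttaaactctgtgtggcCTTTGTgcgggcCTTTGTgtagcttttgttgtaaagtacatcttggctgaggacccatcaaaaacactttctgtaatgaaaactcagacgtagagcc
Cnp: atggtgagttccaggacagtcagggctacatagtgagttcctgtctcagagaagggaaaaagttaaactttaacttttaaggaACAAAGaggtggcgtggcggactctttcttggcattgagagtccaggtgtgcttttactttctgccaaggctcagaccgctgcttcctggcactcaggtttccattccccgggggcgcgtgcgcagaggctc
Gpm6b: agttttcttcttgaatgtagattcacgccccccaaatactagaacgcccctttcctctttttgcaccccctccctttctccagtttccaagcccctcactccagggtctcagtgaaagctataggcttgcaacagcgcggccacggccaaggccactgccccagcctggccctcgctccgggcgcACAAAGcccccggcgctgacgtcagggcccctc
Cldn11: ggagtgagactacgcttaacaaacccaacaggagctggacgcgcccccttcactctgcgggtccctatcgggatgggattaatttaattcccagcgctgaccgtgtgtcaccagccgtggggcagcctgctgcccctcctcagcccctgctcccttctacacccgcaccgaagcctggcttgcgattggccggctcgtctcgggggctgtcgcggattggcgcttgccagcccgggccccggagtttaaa

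ACAAAG stood 6 times in the Mobp window, each time on the strand opposite to the gene, from position -243 to position -115 relative to the RefSeq start. Cnp and Gpm6b held it 1 time each, on the gene's strand, and Cldn11 and Ugt8a held it 0 times. ACAAT was in 0 of these 5 windows. Over all 32851 windows of the same length, 16.5% held ACAAAG, 27.7% held ACAAT and 38.8% held either. The Mobp window was the 1 window of 32851 with ACAAAG at least 6 times, a cutoff taken from its own count. It was also the poorest of the 5 in G and C, at 40.8% against 57.2% for Cnp, 63.2% for Gpm6b, 63.6% for Cldn11 and 76.8% for Ugt8a, with a median of 52.4% over all windows. These letters are a description of the windows, and no binding was measured here.

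Of the 6 genes with a row, 1 rose, 0 fell and 5 were not called. Over all 12316 rows, 4.99% were called, 3.17% as higher and 1.83% as lower, so 1 call among 6 genes is too few to set the group apart from the table. The median log2 fold of the 6 was -0.18, against 0.0033 over all rows, with 2 positive and 4 negative folds. Gpm6b and Cnp were far above the other 4 genes in both conditions. From the highest down, the order of levels in the first condition was Gpm6b, Cnp, Cldn11, Trf, Ugt8a and Mobp. In the second it was Gpm6b, Cnp, Trf, Cldn11, Mobp and Ugt8a. Cldn11 stood 1.18 times above its lower neighbour in both orders, and Mobp 1.14 times above Ugt8a in the second. With no spread between libraries, these neighbours cannot be said to differ.

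**Figure D1:**
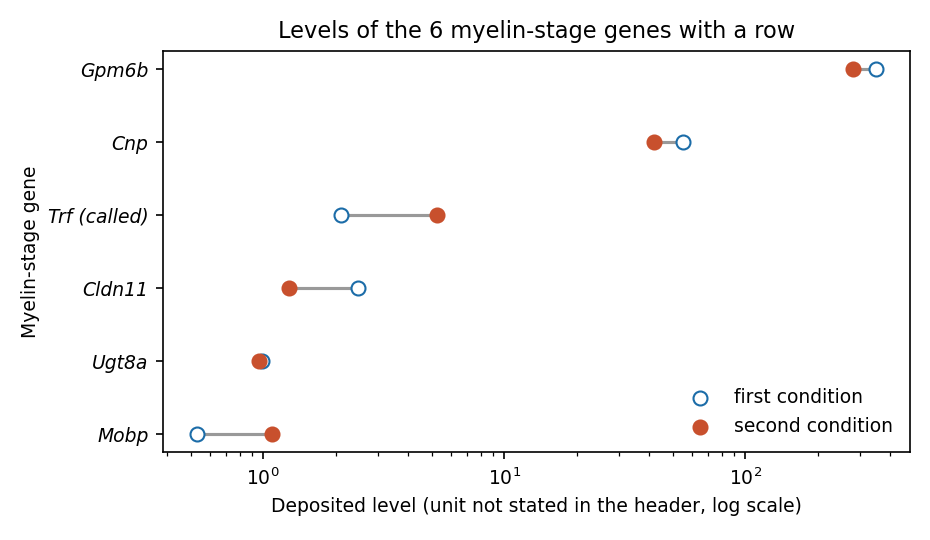
Levels of the 6 myelin-stage genes in the first (open circles) and second condition (filled circles), on a log scale in the deposited unit; there are no replicate values and so no error bars. Trf, the called gene, moves from 2.10 to 5.28, while Gpm6b and Cnp stay far above the rest.

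Trf encodes transferrin, the iron carrier that oligodendrocytes make and secrete. The authors' deposited table has Trf at 2.10 in the first condition and at 5.28 in the second. The second level is the higher one, and the gene rose 2.52-fold (log2 fold 1.33, Cuffdiff q = 0.00304) per the authors' deposited table. Its p of 5e-05 is the lowest that the authors' deposited table holds, a value it shares with 229 other rows. Counted from the highest level, Trf ranked 10654 of 12316 rows in the first condition and 8886 in the second, low in both. Trf lies on chromosome 9, 103204001 to 103230444, minus strand, with 9 annotated transcripts, the longest coding one of 2571 nt. Its exons overlap those of Gm20425 on the same strand, and reads of the 2 genes may have been split between them.

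Other genes of iron handling are set beside Trf. Of 18 listed, 16 had a row: 2 rose, 0 fell and 14 were not called, with 12 positive folds and a median log2 fold of 0.21. That is 12.5% called, beside 4.99% of all rows. Over all rows 6219 of 12316 folds were positive, with a median of 0.0033. Tfrc, the receptor that takes up iron-loaded transferrin, rose 1.65-fold, from 27.4 to 45.3 (Cuffdiff q = 0.00304), per the authors' deposited table. The other rise was Lrp1, an endocytic receptor for many ligands, at 27.7 and then 43.1 (Cuffdiff q = 0.0248) per the authors' deposited table. Its longest coding transcript is of 14888 nt. With the trend of folds over transcript length taken off, the log2 fold of Lrp1 went from 0.64 to 0.23. Neither chain of ferritin, which stores iron, was called. Per the authors' deposited table, the heavy chain gene Fth1 was at 1092 and 1215 (Cuffdiff q = 0.770). The light chain gene Ftl1 was at 555 and 402 (Cuffdiff q = 0.131) per the authors' deposited table. Steap2 and Steap3, metalloreductases, had the largest folds among those not called, with log2 folds of 0.51 and 0.49 per the authors' deposited table. Their levels were low, at 1.23 and 1.76 for Steap2 and 1.36 and 1.91 for Steap3, per the authors' deposited table. With 1 added to each level, both log2 folds were 0.30. With the length trend taken off, they were 0.22 for Steap2 and 0.40 for Steap3.

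Trf is also a gene of the choroid plexus, so markers of that tissue are given beside it. Of 7 markers of choroid plexus and ependyma, 5 had no row, among them Ttr, the defining gene of choroid plexus epithelium, and Kl, Otx2 and Folr1. Foxj1, a regulator of motile cilia, rose from 18.1 to 30.1 and Rarres2 was at 3.34 and 3.67, per the authors' deposited table. The summed level of both genes was 21.4 in the first condition and 33.7 in the second, and its part in the rise of Trf was not tested.

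Mobp encodes a small basic protein of compact myelin, abundant in mature oligodendrocytes. The authors' deposited table has Mobp at 0.531 in the first condition, the lowest level of the 6, and at 1.09 in the second. Mobp was not called, at a log2 fold of 1.04 (Cuffdiff q = 0.250) per the authors' deposited table. Its fold of 2.05 was near that of Trf but rests on a lower level. Among the 682 rows with a mean level under 1, 141 had an absolute log2 fold of at least 1, and 22 of these were called. Mobp lies on chromosome 9, 120149707 to 120181484, and its exons overlap Gm38642 on the same strand.

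Cldn11, the claudin of myelin tight junctions, had its higher level in the first condition. The authors' deposited table has Cldn11 at 2.48 in the first condition and at 1.28 in the second, a ratio of 1.93. It was not called, at a log2 fold of -0.95 with p = 0.0117 (Cuffdiff q = 0.139) per the authors' deposited table. In the range of mean levels from 1 to 3, where Cldn11 lies, the smallest absolute log2 fold called was 0.72, so other rows of that range were called at smaller folds. The gene lies on chromosome 3, 31149920 to 31164324, and has 1 annotated transcript, of 1870 nt.

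Of 19 further claudins and tight junction genes, 6 had a row and 0 of these were called by the authors' Cuffdiff test, with 2 at an unadjusted p under 0.05. Cldn10 was at 1.56 and 0.514 (Cuffdiff q = 0.111) per the authors' deposited table. The row named Cldn25 had the highest level of the 6, at 111 and 107 per the authors' deposited table. That symbol could not be matched to a GENCODE M21 gene, so which gene the row counts is uncertain. The scaffold gene Tjp1 came next, at 54.2 and 73.5 per the authors' deposited table.

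Ugt8a makes galactosylceramide, the lipid that marks oligodendrocytes from the newly formed stage on. The authors' deposited table has it at 0.983 in the first condition and at 0.956 in the second. Its log2 fold of -0.04 (Cuffdiff q = 0.977) per the authors' deposited table was the smallest of the 6 in size. Ugt8a lies on chromosome 3, 125865271 to 125938619, minus strand.

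Cnp encodes a phosphodiesterase that appears early in the lineage and persists in non-compact myelin. Its level was 55.3 in the first condition and 41.7 in the second per the authors' deposited table, at ranks 1735 and 2293 of all rows. Cnp was not called, at a log2 fold of -0.41 with p = 0.0259 (Cuffdiff q = 0.219) per the authors' deposited table. Among rows with a mean level from 10 to 100, the smallest absolute log2 fold called was 0.56. The gene lies on chromosome 11, 100574904 to 100591729, and its exons overlap those of Dnajc7 on the other strand. Dnajc7, a co-chaperone gene, was at 62.7 and 54.5 per the authors' deposited table, without a call. Without strand in counting, reads of Dnajc7 and Cnp in the overlap cannot be told apart.

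Gpm6b, a membrane glycoprotein of neural cells, was the most abundant member. Its level was 349 in the first condition and 279 in the second per the authors' deposited table, ranks 213 and 250 of 12316. Gpm6b was not called, at a log2 fold of -0.32 (Cuffdiff q = 0.451) per the authors' deposited table. Among rows with a mean level of 100 or more, the smallest absolute log2 fold called was 0.55. The gene lies on chromosome X, 166238911 to 166388988, with 12 annotated transcripts, which a level per gene adds together. Its relative Gpm6a, a glycoprotein of neuronal membranes, was at 292 and 257 per the authors' deposited table and, like Gpm6b, was not called.

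**Figure D2:**
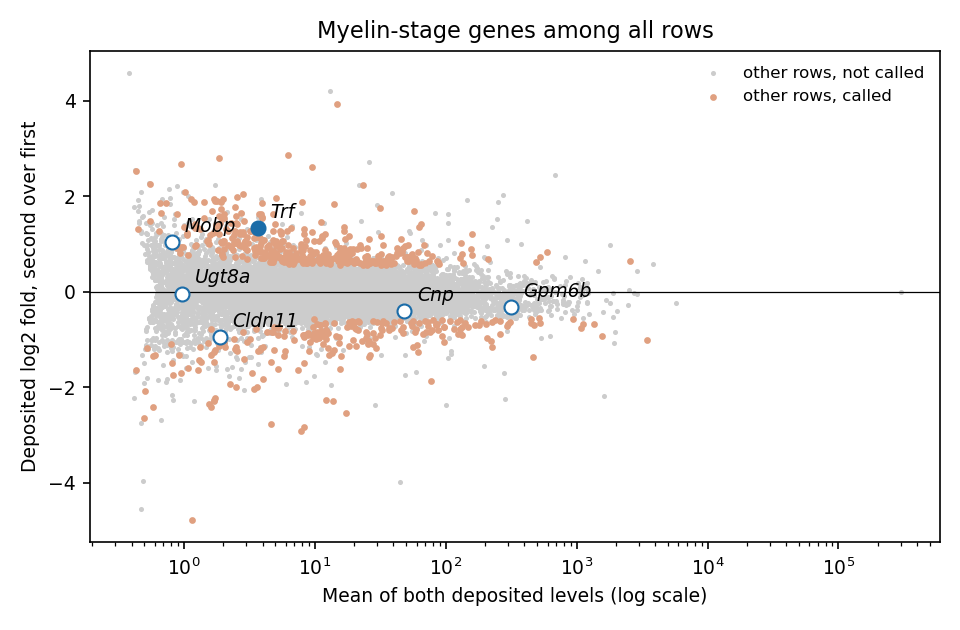
Deposited log2 fold of second over first against the mean of both levels (log scale) for all 12316 rows; grey rows were not called, orange rows were called, and the 6 myelin-stage genes are ringed, filled where called. Trf lies among called rows at a mean level of 3.69, while Cnp and Gpm6b lie nearer to 0 than the folds at which rows of their level were called.

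Further genes of myelin and its membrane were examined as a list. Of 38 listed, 23 had a row: 1 rose, 1 fell and 21 were not called. The median log2 fold was -0.12, and 18 of the 23 folds were negative, against 6097 of all 12316. Gpr37, a receptor expressed by maturing oligodendrocytes, fell 4.24-fold, from 0.823 to 0.194 (Cuffdiff q = 0.0392), per the authors' deposited table. Both levels are low, the second at rank 12308 of 12316 rows, so the size of this fold is uncertain. Pmp22, a membrane protein of peripheral myelin also made outside Schwann cells, rose 1.66-fold, from 38.9 to 64.7 (Cuffdiff q = 0.00708), per the authors' deposited table. Mal, a raft protein of compact myelin, was at 0.741 and 0.321 (Cuffdiff q = 0.148) per the authors' deposited table, without a call. The tetraspanin gene Cd9 was at 169 and 115 (Cuffdiff q = 0.0550) per the authors' deposited table and also missed the call. Recomputed over all rows given here, the value of Cd9 was 0.0479.

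Genes listed for myelin lipids had 0 rises, 2 falls and 15 genes not called among 17 with a row of 20, at a median log2 fold of -0.12. Both falls lie outside galactolipid synthesis. Enpp2, the secreted enzyme autotaxin that makes lysophosphatidic acid, fell 1.53-fold, from 34.0 to 22.2 (Cuffdiff q = 0.0434), per the authors' deposited table. Plekhb1, a membrane protein with a pleckstrin homology domain, fell 1.53-fold, from 227 to 148 (Cuffdiff q = 0.0211), per the authors' deposited table. Gal3st1, which adds sulfate to the product of Ugt8a, was at 1.53 and 1.81 per the authors' deposited table, without a call. Aspa, which frees acetate for lipid synthesis, was at 7.43 and 4.73 (Cuffdiff q = 0.195) per the authors' deposited table. Sptlc2, a subunit of the enzyme that starts sphingolipid synthesis, was at 6.87 and 9.43 (Cuffdiff q = 0.228) per the authors' deposited table.

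Transcription factors and chromatin genes of the lineage had 0 calls by the authors' Cuffdiff test among 16 with a row of 23, with 4 at an unadjusted p under 0.05. Their median log2 fold was 0.20, with 11 positive folds, beside 0.0033 and 6219 of 12316 over all rows. The 4 genes under that p were Myrf, Smarca4, Chd7 and Chd8. With the trend of folds over transcript length taken off, Myrf went from 0.84 to 0.73 and Smarca4 from 0.50 to 0.36. Chd7 went from 0.44 to 0.16 and Chd8 from 0.40 to 0.18. Olig1 and Olig2, which specify the lineage, were the most abundant of the 16. Per the authors' deposited table, Olig1 was at 937 and 809.9 and Olig2 at 381 and 333. Myrf, the factor that switches on myelin genes, was at 0.658 and 1.18 (Cuffdiff q = 0.115) per the authors' deposited table. Smarca4, the ATPase of a chromatin remodelling complex, was at 51.3 and 72.7 (Cuffdiff q = 0.0877) per the authors' deposited table. Sox10, Nkx6-2 and St18 are among the 7 without a row.

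Earlier stages of the lineage contained both calls and genes at high level. Of 16 genes of newly formed oligodendrocytes, 13 had a row: 1 rose, 1 fell and 11 were not called, at a median log2 fold of 0.10. Gpr17, a receptor that marks cells about to mature, fell 2.55-fold (Cuffdiff q = 0.00304) per the authors' deposited table. Itpr2, a calcium release channel, rose 1.66-fold, from 5.45 to 9.06 (Cuffdiff q = 0.00892), per the authors' deposited table. With the trend of folds over transcript length taken off, its log2 fold went from 0.73 to 0.41. Kif19a was at 1.37 and 0.867 and Cnksr3 at 6.05 and 8.79 per the authors' deposited table, and neither was called. Of 20 precursor genes, 17 had a row: 0 rose, 3 fell and 14 were not called, at a median log2 fold of -0.20. These falls were C1ql1, a secreted synaptic organiser, at a log2 fold of -2.27, Dll3, a Notch ligand, at -1.62, and Lhfpl3 at -0.62 per the authors' deposited table. C1ql1 fell from 2.81 to 0.585 (Cuffdiff q = 0.0151) per the authors' deposited table, and its second level was low, at rank 12170 of all rows. At a q under 0.01, 1 of the 3 falls stayed. Pdgfra and Cspg4, the defining genes of the precursor, were not called. Per the authors' deposited table, Pdgfra was at 48.1 and 41.8 and Cspg4 at 20.1 and 21.2. Neu4, a sialidase, was at 1.27 and 0.641 and the endothelin receptor gene Ednrb at 292 and 204 per the authors' deposited table, without a call.

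Over these 8 lists together, each gene counted once, 109 of 155 genes had a row, 4 rose and 7 fell. That is 10.1% called, beside 4.99% of all rows, and the median log2 fold was -0.03. The lists hold no member and were picked with results of these data in view, so the share is a description only.

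**Figure D3:**
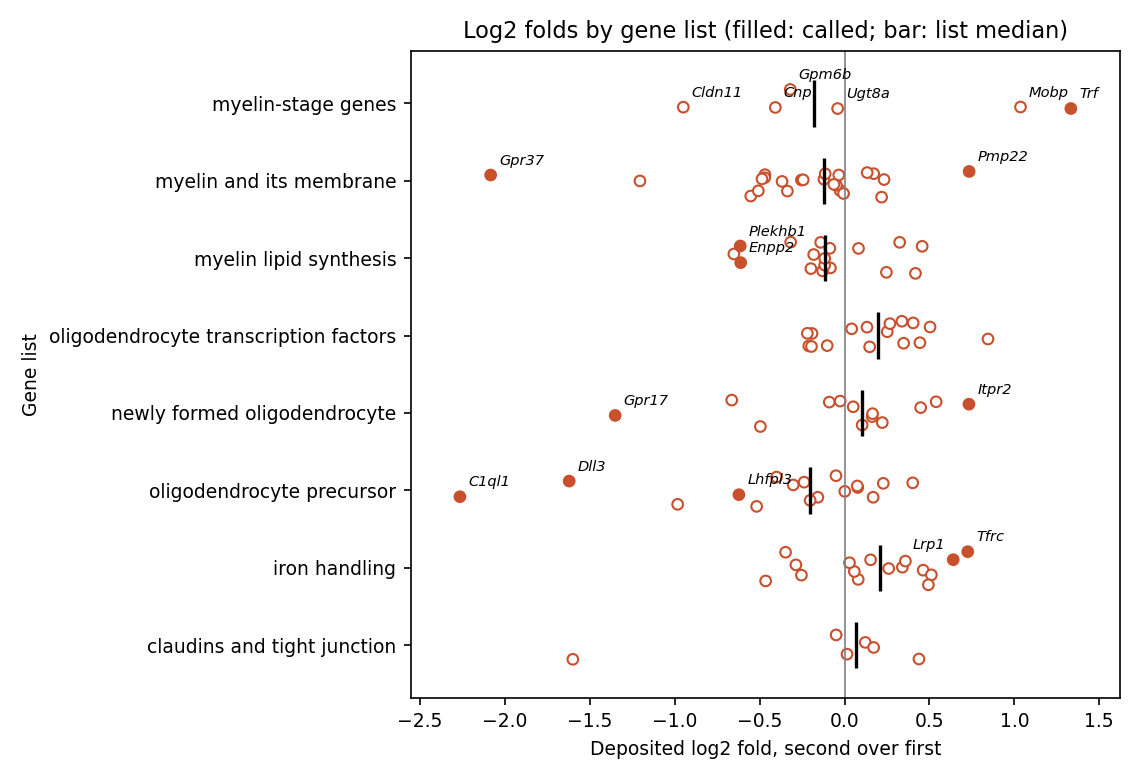
Deposited log2 fold of second over first for each gene with a row, by list; filled circles are called genes, open circles were not called, vertical bars are list medians, and vertical scatter within a list has no meaning. The 6 myelin-stage genes (top) run from -0.95 to 1.33, and the list medians lie between -0.20 and 0.21; Gpm6a, a list of its own, is not drawn.

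The label of the cells was checked against markers. Of 10 defining genes of mature oligodendrocytes, 6 had no row (Mbp, Mag, Mog, Opalin, Ermn and Gjb1), and the other 4 summed to a level of 11.2 in the first condition and 7.42 in the second. Aspa made up most of both sums. Of these 4, 0 were called by the authors' Cuffdiff test, with 4 at an unadjusted p under 0.05, 1 positive fold (Mobp) and 3 negative. Mbp, Mag, Mog, Mobp and Cldn11 are themselves myelin-stage genes of this report, and the others stand in the myelin membrane or lipid lists above. These marker values therefore repeat values already given and are no separate check. Of 12 neural stem cell markers, 11 had a row, with 1 rise (Nes) and 2 falls (Fabp7 and Hes5). Their summed level was 6320.0 and then 4136, and Fabp7 carried the drop: without it the other 10 summed to 1699.6 and 1851. The name "myelin-stage" describes what the genes are known for. Most defining markers of the mature cell have no row of their own here, which does not show that they are not expressed. Astrocyte markers moved in the same comparison: of 10, 9 had a row, 5 fell and 1 rose, with summed levels of 1361 and 939.7. Most of both sums was Aldoc, at 1101 and 796 (Cuffdiff q = 0.175) per the authors' deposited table, which was not called. Of 9 fibroblast markers, 3 had a row and all 3 were called: Acta2 and Fbn1 rose and Twist1 fell, with summed levels of 33.8 and 60.1, while Col1a1, Col1a2, Col3a1, Dcn, Lum and Pdgfrb had no row. Of 10 neuron markers, 6 had a row, 1 (Elavl4) fell and 0 rose, with summed levels of 135.5 and 136.9. Map2 alone was at 122.1 and 127.4 per the authors' deposited table, so these sums say little of the other neuron markers. Of the 6 folds, 4 were positive and 2 negative. Of 11 Schwann cell markers, 4 had a row and 0 were called by the authors' Cuffdiff test, with 0 at an unadjusted p under 0.05. The 8 microglial and the 8 endothelial and mural markers had 0 rows. The part of these other cell types in the values of Trf, Pmp22, Gpr37 or Gpr17 was not tested. In bulk RNA, fewer cells of a type and less RNA per cell cannot be told apart.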

How the data were processed

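The members and gene lists were chosen with earlier results of these data known. Reads were handled with TopHat2 2.0.9, Cufflinks 2.2.1 and Cuffdiff, without a stated version, on mm10, per the submitters' processing notes. The annotation, the use of strand in counting and any pooling of libraries were not stated there or in the labels. Per the file headers, the deposited table holds a level per condition, whose unit is not stated, a log2 fold, a test statistic (a score), and a p-value and q-value. The plan assumed FPKM. It holds 12316 gene rows and 1 blank line, 82 rows name several genes, and depth is unknown. Nothing gives values per library, so no SD, n or refit was possible and p-values rest on the authors' spread between libraries, which may be technical.

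Genes were matched by symbol in rows that name 1 gene, and the authors' Cuffdiff call across all genes was kept as the main test. Named genes are the members, Sox4, called genes of each list, the most abundant where fewer than 2 were called, and the 2 not called with the largest folds. Gal3st1, Fth1, Ftl1, Pdgfra, Cspg4, Dnajc7, Chd7, Chd8 and the cell type markers were added after their values were seen. So were the promoter motifs and the windows printed. Of the listed genes, 1 is not reported here and was left out of the lists. Positions and transcript lengths were those of GENCODE M21, built on GRCm38 (mm10). The length trend was smoothed with a span of 0.3 and it and the Benjamini-Hochberg step were tested on simulated data. Python 3.11.15, numpy 2.4.6, pandas 2.3.3, statsmodels 0.14.6 and matplotlib 3.10.9 were used.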

Additional observations from a re-analysis of the deposited data

How the results depend on the processing

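The count of 1 rise and 0 falls among the 6 genes held with q recomputed over all rows or over rows with a level of at least 1, and at a q under 0.01. With q recomputed, 2 calls changed among Sox4 and the listed genes: Sox4 went from 0.0543 to 0.0472 (all rows) or 0.0462 (level filter), and Cd9 from 0.0550 to 0.0479 or 0.0470. These checks beyond the members were added after seeing the data, and the table holds fewer rows than the authors tested. Ugt8a drops out of the level filter, being under 1 in both conditions. Of 24 alternative log2 folds of these genes (pseudocounts of 1 and 0.1, centring, and the length trend taken off), 0 changed sign and 4 moved by over 1.5 times. With a pseudocount of 1 the log2 fold of Cldn11 went from -0.95 to -0.61, of Mobp from 1.04 to 0.45 and of Ugt8a from -0.04 to -0.02. With the length trend taken off, Ugt8a went to -0.07. A pseudocount or the small centring could not change a sign. Over the 8 lists, the 7 falls became 2 at a q under 0.01, as a stricter threshold must give, while the 4 rises stayed within 1.5 times at 3. The length trend was also taken off the 4 rises of these lists, after their calls were known. Their log2 folds went from 0.64 to 0.23 for Lrp1 and from 0.73 to 0.41 for Itpr2. Tfrc went from 0.73 to 0.65 and Pmp22 from 0.73 to 0.81. Of 80 counts of single lists, 6 moved by over 1.5 times. With a level of at least 1 required, Gpr37, the fall of the myelin membrane list, drops out. No paired analysis was possible because values per passage are not among the data analysed here. Leaving out each library was not run for that reason. Depth is unknown, so no limit can be stated from it.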
